A study of Mus musculus with 3 samples.

Results

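The genes described here encode the enzymes that handle foreign compounds in the mouse small intestine. They are the cytochrome P450 families CYP1 to CYP4, the carboxylesterases CES1 and CES2, the UDP-glucuronosyltransferases UGT1 and UGT2, the glutathione S-transferases GSTA, GSTM, GSTP, GSTT, GSTO and MGST, and the sulfotransferases (SULT). They were chosen by gene symbol alone, with pseudogene symbols containing -ps left out, and 160 of the 51912 features counted met the rule. Single-cell RNA sequencing (scRNA-seq) was available for 3 libraries of intestinal epithelium. The Arid3a cKO group held 2 libraries from VillinCreERT2, Arid3a fl/fl mice, and the WT group held 1 library from VillinCreERT2 mice, so the Cre recombinase, driven by the promoter of the epithelial gene Villin, was carried by both groups. All mice received tamoxifen at 8 to 10 weeks of age and were harvested 1 month after the first injection. Epithelium isolated as crypts was dissociated and sorted for living cells that carried Epcam and lacked CD45 and CD31. With 1 WT library the tests assume that WT mice vary as the Arid3a cKO mice do, and how many animals entered each library is not given in the sources used here.

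Drug and xenobiotic metabolism runs in phases. In phase I, cytochrome P450 enzymes oxidise a compound and carboxylesterases cleave its ester bonds. In phase II, transferases attach glutathione, glucuronic acid or sulfate, which makes the product easier to export. Enterocytes are the first cells to meet dietary chemicals, and receptors such as AHR, PXR (Nr1i2) and CAR (Nr1i3) and the stress-response factor NRF2 (Nfe2l2) are known to switch on these enzymes.

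Cells were kept with at least 1000 detected genes and at most 15% mitochondrial transcripts, which left 2134, 1550 and 1910 cells in Arid3a cKO replicate 1, Arid3a cKO replicate 2 and WT. A transcript was counted once by its unique molecular identifier (UMI), and levels are UMIs per 1000000 UMIs of all genes in the same cells (CPM). The kit counts transcripts at their 3′ end, so a level does not scale with gene length. The kept cells held 58169310 to 70922480 UMIs per library and shared 0, 2 and 1 barcodes between pairs of libraries. Over all kept cells, Arid3a itself was at 0.592 and 0.894 CPM with the deletion and at 2.57 CPM without it (42, 52 and 161 UMIs). The exact 95% Poisson intervals, which cover counting error only, did not overlap with that of WT. In enterocyte-like cells it was at 0.456 and 1.15 against 2.25 CPM (12, 24 and 48 UMIs). There the interval of Arid3a cKO replicate 2 (0.738 to 1.71 CPM) overlapped with that of WT (1.66 to 2.99 CPM). The epithelial label was checked against markers: Epcam stood at 1665 to 1969 CPM, and 12 immune markers summed to 3.21, 13.9 and 22.0 CPM over all kept cells but to at most 0.493 CPM in enterocyte-like cells. Clusters were named only from fixed markers. Intestinal stem cell (ISC)-like and transit-amplifying (TA)-like cells were clusters 0 and 4, and enterocyte-like cells were clusters 1, 3, 6 and 11, with 824, 603 and 696 cells in the same library order. Cluster 2, led by Ccl20, Edn2 and Krt19, carried too few markers for a name. Cluster 8, also unnamed, held 149 cells with a median of 11.8% mitochondrial UMIs. The immune markers summed to 280, 1501 and 1081 CPM in it, and its cells stayed among all kept cells.

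Some markers of intestinal region also differed between the libraries. In enterocyte-like cells, 7 proximal markers summed to 4022 and 5077 CPM in Arid3a cKO and to 2790 CPM in WT, and in ISC- and TA-like cells to 591 and 621 CPM against 466 CPM. S100g, a duodenal calcium-binding protein on the proximal list, made up 2286 and 3211 CPM of the enterocyte-like sums against 1244 CPM in WT. Of the others read singly, Pdx1 (36.3 and 35.8 against 19.9 CPM) and Akp3 (70.5 and 110 against 27.9 CPM) were also higher in Arid3a cKO. Gata4 went the other way, at 49.5 and 45.2 against 55.5 CPM. A list of 6 distal markers summed to 397 and 418 against 416 CPM in enterocyte-like cells. A list of 7 colon markers summed to 159 and 189.7 against 167 CPM in these cells. Cluster 6, led by Akp3 and S100g, made up 16.9% and 21.9% of the enterocyte-like cells in Arid3a cKO and 12.9% in WT. Its part in the differences reported below was not tested, but values within single clusters are given beside them.

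The epithelium used a small part of the enzyme repertoire. No UMI was seen for 44 of the 160 members, and 61 had 10 or fewer UMIs in all kept cells. Every GST and MGST gene was detected, as was every CES2 gene, whereas 19 of 49 CYP2 genes and 11 of 21 SULT genes had no UMI. The AHR target Cyp1b1 had 0 UMIs in each library, where a count of 0 allows up to 3 UMIs. The 5 most abundant members, Mgst3, Gsta1, Ces2e, Gsto1 and Sult1b1, supplied 35.0% of all member UMIs. Members together made up 0.861%, 0.914% and 0.843% of UMIs in Arid3a cKO replicate 1, Arid3a cKO replicate 2 and WT.

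Some members could not be read as single genes. The last 400 bases of the annotated transcripts were identical over at least 393 bases among 8 of the UGT1 genes, whose transcripts share their 3′ exons, and Ugt1a7c was the only UGT1 gene to reach a mean of 20 CPM in enterocyte-like cells (20.8, 22.7 and 23.3 CPM). A 3′ count cannot assign reads from those exons to one gene, so UGT1 levels are uncertain and may be too low. Gstp1 and Gstp2 were 98.8% identical over that stretch, Gsta1 and Gsta2 95.5%, Cyp2c68 and Cyp2c40 98.5%, and Ugt2b38 and Ugt2b37 88.8%, and their levels are uncertain for the same reason. Cyp3a11 matched Cyp3a41a at 94.1% over 219 bases. Gstm1, Cyp1a1, Cyp2j6, Cyp4b1, Sult6b2 and Sult1d1 had no member match of 85% or more over at least 200 bases.

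Along the path from crypt to villus, the share of UMIs from members was lowest in ISC- and TA-like cells and highest in enterocyte-like cells. It was 0.295% to 0.320% in ISC-like cells of the 3 libraries, 0.737% to 0.831% in cluster 2, 1.34% to 1.504% in cluster 3, 1.70% to 1.83% in cluster 1 and 2.01% to 2.33% in cluster 6. Members did not enter the clustering, but the genes that did vary with them, so these class levels are a description without a test. Paneth-like cells, which hold very large amounts of defensin RNA, had the lowest share (0.0336% to 0.0708%). Of 52 members with at least 20 CPM in enterocyte-like cells of all 3 libraries, 50 were higher there than in ISC- and TA-like cells in all 3, and 29 (55.8%) were at least 5-fold higher. The same 5-fold difference was seen for 8.1% of the 4492 genes at that level.

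**Figure D1:**
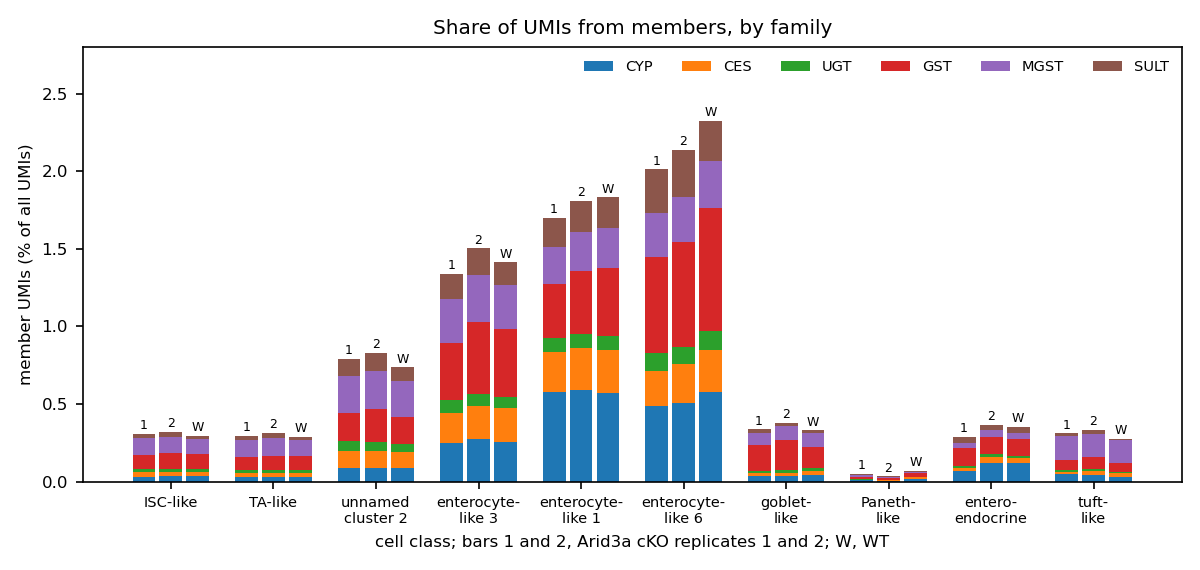
Share of all UMIs that came from members, in percent, for each cell class and library, stacked by enzyme family (CYP, CES, UGT, GST, MGST, SULT). The 3 bars of a class are Arid3a cKO replicates 1 and 2 and WT, and the share climbs from 0.295% to 0.320% in ISC-like cells to 2.01% to 2.33% in cluster 6.

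Members differed in where along this path they rose above their crypt level. As a share of UMIs, the CYP family made up 0.0304% to 0.0356% in ISC-like cells, 0.0896% to 0.0903% in cluster 2 and 0.571% to 0.591% in cluster 1, and the GST family 0.089% to 0.0981%, 0.173% to 0.209% and 0.348% to 0.439%. Gsta1, an alpha-class transferase, had 373, 477 and 338 CPM in cluster 2, against 12.99 to 50.1 CPM in ISC- and TA-like cells, and reached 2679 to 3105 CPM in cluster 6. The membrane-bound Mgst3 had 486 to 646 CPM in ISC- and TA-like cells and 1428 to 1533 CPM in cluster 2. Among the P450 genes, Cyp3a11, a major drug-oxidising enzyme and PXR target, was at 12.9 to 18.4 CPM in cluster 2, no higher than the 12.1 to 29.3 CPM of ISC- and TA-like cells, and then at 122 to 201 CPM in cluster 3 and 635 to 957 CPM in cluster 1. Cyp2b10, a CAR target, followed the same course, with 10.99 to 12.9 CPM in cluster 2 and 533 to 578 CPM in cluster 1. Cyp1a1, the P450 best known as an AHR target, had at most 1.57 CPM in cluster 2 and 34.1 to 66.2 CPM in cluster 1.

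Few members ran the other way. Gstm5 was at 85.4, 91.2 and 93.5 CPM in ISC-like cells and at 29.95, 28.1 and 29.1 CPM in enterocyte-like cells, and Gstt2, a theta-class transferase, was at 71.1 to 86.5 CPM and 55.2 to 60.5 CPM. These were the only 2 members at 20 CPM or more in ISC- and TA-like cells that were higher there than in enterocyte-like cells in all 3 libraries. The stem-cell and enterocyte levels of each did not overlap.

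Other lineages held their own members. In enteroendocrine-like cells, the hormone-producing cells, Gstt1 was at 430, 418 and 413 CPM, at least 2.37-fold its level in any other class of the same library. Cyp4b1 was at 94.7, 71.7 and 147 CPM there. Cyp2j5, an epoxygenase of fatty acids, had 12, 13 and 61 UMIs in enteroendocrine-like cells and 0, 1 and 0 UMIs in the far more numerous enterocyte-like cells. It was named after its values were seen, since it stayed under 20 CPM in 2 libraries. Gsta4, which detoxifies the lipid peroxidation product 4-hydroxynonenal, was highest by class in goblet-like cells (688, 943 and 521 CPM), although cluster 6 was higher still (1218, 1437 and 1039 CPM). Cyp2s1 was also highest by class in goblet-like cells, at 45.9, 30.7 and 33.9 CPM. Tuft-like cells held 1237 to 1288 CPM of Mgst3 and none of the 50 members with the same highest class in all 3 libraries was highest there. Enterocyte markers in these classes, which can come from free RNA, stood at 0.496% to 14.6% of their enterocyte-like level. Gsta4 in goblet-like cells stood above its own enterocyte-like level in each library.

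**Figure D2:**
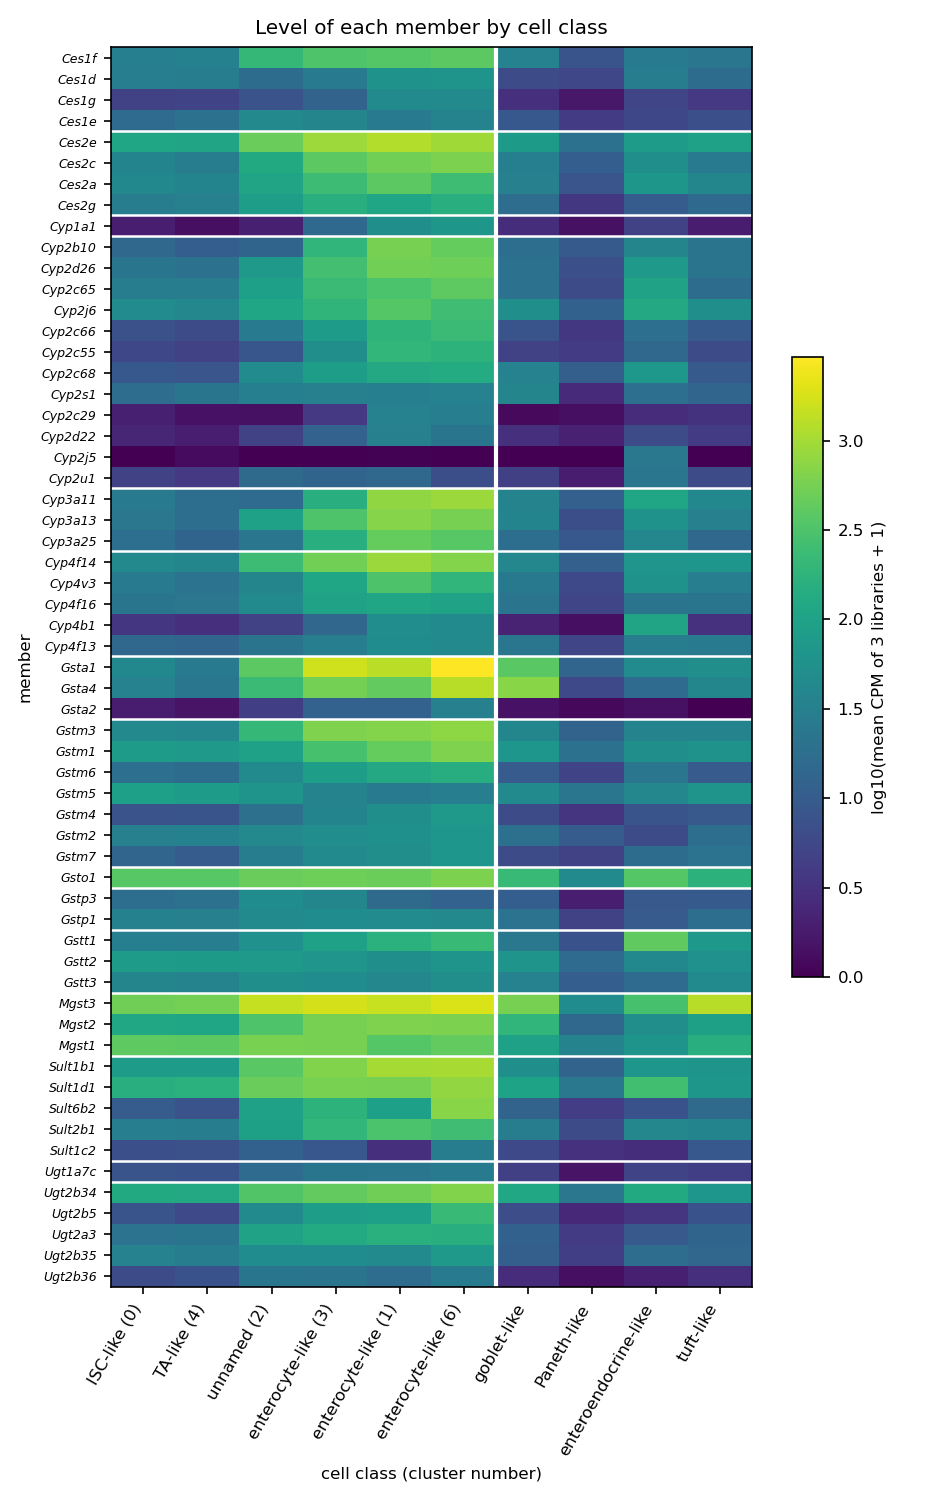
Mean level over 3 libraries, as log10(CPM + 1), of each member with a mean of at least 20 CPM in a class or cluster shown. Columns run from ISC-like cells (cluster 0) through cluster 2 to the enterocyte-like clusters, followed by 4 secretory or tuft classes, and rows are grouped by family. Most rows brighten in clusters 3, 1 and 6, Gstm5 darkens, and Gstt1, Cyp4b1 and Cyp2j5 stand out in enteroendocrine-like cells.

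Within the enterocyte-like cells the clusters were not alike. Sult6b2, a sulfotransferase, was at 551 to 866 CPM in cluster 6 and at 66.8 to 112 CPM in cluster 1. It was among the 10 leading genes of cluster 6, and members were left out only of the features used to cluster. Ugt2b38 was seen almost only in cluster 6 (62, 100 and 7 of its 69, 109 and 9 enterocyte-like UMIs). Gstp3 was at 6.64 to 16.2 CPM in cluster 6, below the 42.2 to 52.1 CPM of cluster 2, which is not among the enterocyte-like clusters.

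Loss of Arid3a was then compared with WT in enterocyte-like cells. UMIs were summed per library and tested with edgeR's quasi-likelihood test over 10671 genes, with Benjamini-Hochberg adjustment, and a gene was called at an adjusted p under 0.05. Of all genes, 1.27% were called. Of the 160 members, 71 passed the filter of a mean of 1 CPM, and 10 of them were called, 7 higher and 3 lower in Arid3a cKO (0.497% and 0.768% of all genes in each direction). The median log2 fold change of the 71 was 0.06, against 0.00 over all genes tested. By a rule of size alone (a mean of 20 CPM and at least a doubling or halving in both Arid3a cKO libraries, with 5 CPM added), 1 of 54 members, Gstm1, was separated, where 0.359% of genes were. Members together gave 1.62% and 1.78% of UMIs in enterocyte-like cells of Arid3a cKO and 1.74% in WT, which lies between them.

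**Figure D3:**
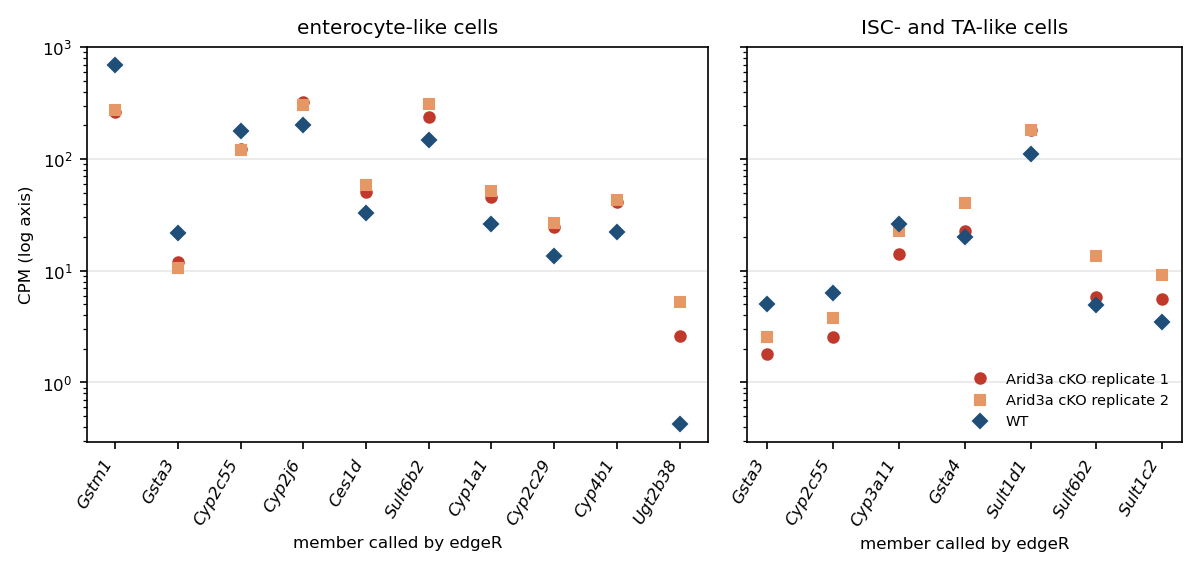
CPM, on a log axis, in Arid3a cKO replicates 1 and 2 and WT for each member called by edgeR, in enterocyte-like cells (left) and in ISC- and TA-like cells (right), ordered by log2 fold change. Each point is 1 library. Gstm1 shows the widest gap among the abundant members, and in ISC- and TA-like cells Sult6b2 and Gsta4 of replicate 1 lie close to WT.

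Gstm1 had the lowest adjusted p of the members in enterocyte-like cells. This mu-class transferase conjugates glutathione to electrophiles such as epoxides, and in enterocyte-like cells it was at 265 and 275 CPM with the deletion against 695 CPM in WT, 2.58-fold higher in WT. Its log2 fold change was -1.35 ± 0.11 (SE; edgeR adjusted p = 0.000383). The difference was found in each cluster: 353 and 343 against 1156 CPM in cluster 6, 290.6 and 292 against 757 CPM in cluster 1, and 200.03 and 211 against 455 CPM in cluster 3. In cluster 2 the values were 97.0 and 84.7 against 106 CPM, and goblet-like cells had 67.1 and 66.2 against 61.1 CPM. The rise of Gstm1 from crypt to villus was 7.89-fold in WT and as little as 3.799-fold in Arid3a cKO.

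Gstm1 lies at chr3:108012255-108017973 on the minus strand, within a run of 7 GSTM genes (coordinates from GENCODE M21 on GRCm38, matched by gene identifier). In their order along the chromosome, Gstm5 and Gstm7 had log2 fold changes of 0.01 and 0.16 in enterocyte-like cells, and Gstm6, Gstm3, Gstm2, Gstm1 and Gstm4 had -0.21, -0.66, -0.37, -1.35 and -0.44. Of the 7, only Gstm1 was called. Gstm3, the most abundant of them, was at 519 and 592 CPM against 890 CPM (edgeR adjusted p = 0.0603), and Gstm4 was at 41.1 and 46.2 against 59.8 CPM (edgeR adjusted p = 0.11). Both Arid3a cKO libraries lay below WT for 5 of the 7 genes and above it for Gstm7. Of genes with a mean of 20 CPM, 76.0% had both on the same side of WT, above or below, and the share below alone was not counted. In ISC- and TA-like cells the 7 changes ran from -0.33 to 0.21 and none was called.

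**Figure D4:**
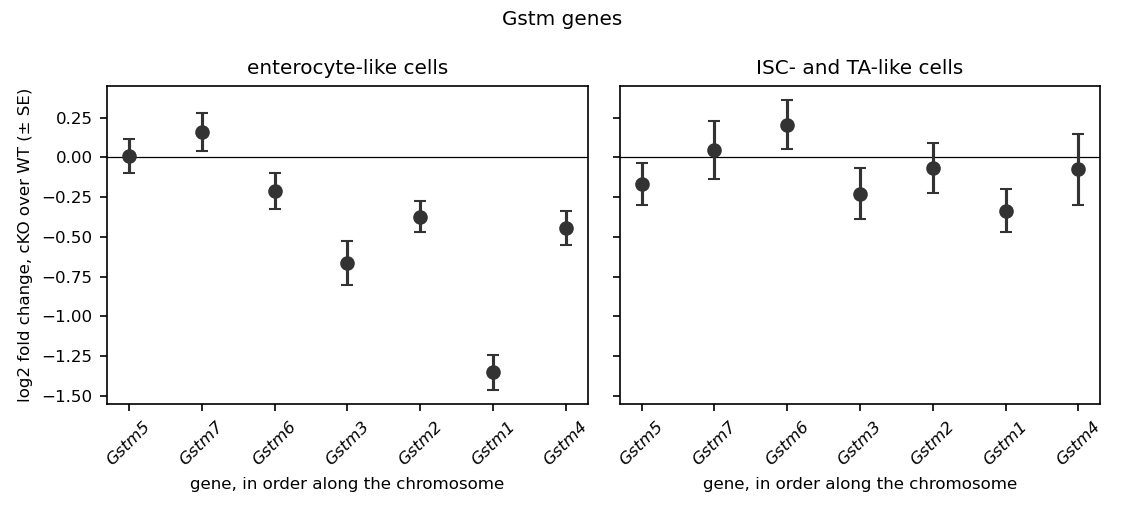
Log2 fold change of Arid3a cKO over WT for the 7 GSTM genes in their order along the chromosome, in enterocyte-like cells (left) and in ISC- and TA-like cells (right). Bars are standard errors derived from edgeR's F statistic. Gstm1 lies at -1.35 in enterocyte-like cells, and its neighbours lie between -0.66 and 0.16.

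Cyp1a1 was the CYP1 gene with a measurable level and was higher in Arid3a cKO. It was at 45.4 and 52.2 CPM against 26.3 CPM in WT (1197, 1088 and 560 UMIs), a log2 fold change of 0.91 ± 0.13 (SE; edgeR adjusted p = 0.00954). Within clusters the levels were 57.2 and 66.2 against 34.1 CPM in cluster 1 and 88.2 and 69.7 against 42.3 CPM in cluster 6. In cluster 3 they were 12.9 and 19.4 against 10.6 CPM, and tested there alone the call was lost (edgeR adjusted p = 0.385). Of the other CYP1 genes, Cyp1a2 had 30, 15 and 12 UMIs in all kept cells and was not tested.

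The promoters of Cyp1a1, Gstm1 and Gstm3 are shown because Cyp1a1 and Gstm1 were the members called over all kept cells and Gstm3 is the abundant neighbour of Gstm1 that was not called. Each sequence is the 250 bases before the RefSeq transcription start, 5′ to 3′ on the gene's strand, in GRCm38.p6. Capitals mark GCGTG, the core of the element bound by AHR with ARNT, or its complement CACGC on the other strand. Cyp1a1 lies on the plus strand at chr9:57697363-57697612, Gstm1 on the minus strand at chr3:108017819-108018068 (the downstream of 2 listed starts) and Gstm3 on the minus strand at chr3:107969175-107969424. Part of the Gstm1 window lies within the GENCODE span of the gene given above, and the window of its other listed start is not shown.
Cyp1a1: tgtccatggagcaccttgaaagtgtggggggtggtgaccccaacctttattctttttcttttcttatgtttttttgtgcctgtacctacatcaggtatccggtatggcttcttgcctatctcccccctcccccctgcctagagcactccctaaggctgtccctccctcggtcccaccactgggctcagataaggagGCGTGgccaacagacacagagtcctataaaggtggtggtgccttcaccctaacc
Gstm1: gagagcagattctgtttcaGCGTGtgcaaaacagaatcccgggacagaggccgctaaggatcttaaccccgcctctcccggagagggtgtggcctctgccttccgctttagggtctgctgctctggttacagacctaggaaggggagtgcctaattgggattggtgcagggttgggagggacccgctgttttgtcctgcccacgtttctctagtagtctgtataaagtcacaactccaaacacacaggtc
Gstm3: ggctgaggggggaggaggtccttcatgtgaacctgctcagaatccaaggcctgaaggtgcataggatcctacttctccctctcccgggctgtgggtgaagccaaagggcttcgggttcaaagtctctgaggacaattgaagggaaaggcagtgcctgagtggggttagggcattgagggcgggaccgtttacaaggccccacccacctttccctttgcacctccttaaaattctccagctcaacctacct
Cyp1a1 and Gstm1 hold 1 match each and Gstm3 holds 0. The motif is short, and 28.2% of the 32851 windows in the table and 26 of the 153 windows of members (17.0%; 134 member symbols had a window) hold it, so a match here is a description of the letters only.

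Of the CYP2 genes, Cyp2j6 and Cyp2c29 were higher and Cyp2c55 was lower in Arid3a cKO enterocyte-like cells. Cyp2j6, an arachidonic acid epoxygenase, was at 321 and 306 against 203 CPM, with a log2 fold change of 0.64 ± 0.10 (SE; edgeR adjusted p = 0.0195). The gap was 445 and 397 against 241 CPM in cluster 1 and narrowed to 269.7 and 258 against 226 CPM in cluster 6, where it was not called (edgeR adjusted p = 0.512). Cyp2c29 was at 24.4 and 27.0 against 13.6 CPM and Cyp2c55 at 122 and 119.9 against 179 CPM, with log2 fold changes of 0.93 ± 0.14 and -0.55 ± 0.09 (SE; edgeR adjusted p = 0.0148 and 0.0197). Within clusters, Cyp2c29 was at 39.4 and 40.8 against 20.2 CPM in cluster 1 and at 32.6 and 27.9 against 26.8 CPM in cluster 6. It was not called in cluster 6 alone (log2 fold change 0.18; edgeR adjusted p = 0.84) nor in cluster 3 alone, where it had 34, 26 and 7 UMIs (edgeR adjusted p = 0.0631). Cyp2c55 was at 179 and 162 against 250.4 CPM in cluster 1, at 157 and 132 against 238 CPM in cluster 6 and at 41.5 and 50.5 against 59.9 CPM in cluster 3, where it was not called (edgeR adjusted p = 0.242). Cyp2c29 and Cyp2c55 lie in the CYP2C run on chromosome 19, at chr19:39269405-39330713 and chr19:39007019-39042693, and both are known to act on fatty acids. Between them lie Cyp2c65 and Cyp2c66, whose log2 fold changes were 0.01 and -0.14. Neighbouring CYP2C genes thus held values in both directions. Of the 15 CYP2 genes tested, the other 12 were not called, among them Cyp2b10 at 387 and 439 against 396 CPM.

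Among the CYP3 and CYP4 genes, Cyp4b1, which hydroxylates fatty acids, was the only one called. It was at 41.6 and 43.0 against 22.2 CPM, a log2 fold change of 0.94 ± 0.11 (SE; edgeR adjusted p = 0.00348), and in cluster 3, where it was scarce, the call was lost (12.2 and 16.1 against 10.9 CPM). In enteroendocrine-like cells its order was the reverse, 94.7 and 71.7 against 147 CPM, with 84, 58 and 226 UMIs and no test. Those classes held 46, 43 and 88 cells, and their 14 markers summed to 136978 and 120792 against 180983 CPM. The levels of Cyp4b1 there may therefore not compare like cells. Cyp3a11 was at 444 and 565 against 714 CPM, and this was not called (log2 fold change -0.49 ± 0.16 SE; edgeR adjusted p = 0.255). Cyp4f14, the most abundant P450 gene by its mean over the libraries, was at 734, 739.7 and 712 CPM.

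Ces1d was the only carboxylesterase called of 10 tested. It was at 50.8 and 58.8 against 33.2 CPM, with a log2 fold change of 0.74 ± 0.12 (SE; edgeR adjusted p = 0.0241), and within cluster 6 the gap was 62.0 and 67.0 against 54.0 CPM and was not called. Ces2e, the most abundant member of its class, was at 1004, 1039 and 1037 CPM. Ces2a was at 254 and 281 against 395 CPM, a difference that missed the threshold (edgeR adjusted p = 0.0635).

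The phase II genes beside Gstm1 gave 3 more calls. Gsta3 was at 11.995 and 10.7 against 21.8 CPM, a log2 fold change of -0.93 ± 0.14 (SE; edgeR adjusted p = 0.0122). It was at 14.9 and 12.4 against 25.7 CPM in cluster 1, 12.3 and 11.9 against 30.9 CPM in cluster 6 and 8.75 and 7.58 against 13.7 CPM in cluster 3, where it was not called (edgeR adjusted p = 0.175). Sult6b2 was at 236 and 309 against 148 CPM, a log2 fold change of 0.90 ± 0.17 (SE; edgeR adjusted p = 0.0383), and was 94.4 and 112 against 66.8 CPM in cluster 1, 186 and 215 against 121 CPM in cluster 3 and 697 and 866 against 551 CPM in cluster 6. It was called in each of these clusters alone, but not by DESeq2 (adjusted p = 0.748) nor by edgeR without a filter on CPM (adjusted p = 0.061). With the enterocyte-like clusters weighted equally its log2 ratio was 0.52. Ugt2b38 had 69 and 109 UMIs in Arid3a cKO and 9 in WT, which is 2.62 and 5.23 against 0.422 CPM (log2 fold change 3.19 ± 0.59 SE; edgeR adjusted p = 0.0383, and 0.0599 without a filter on CPM). These UMIs came from cluster 6, the cluster with more cells in Arid3a cKO, where Ugt2b38 was at 13.4 and 22.1 against 2.64 CPM.

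The most abundant conjugating enzymes were not called. Gsta1 was at 1517, 1964 and 1601 CPM, Mgst3 at 1590.3, 1727 and 1705 CPM, Sult1b1 at 850.1, 914 and 879 CPM, and Ugt2b34 at 512, 509 and 518 CPM in enterocyte-like cells. For Gsta1, Mgst3 and Sult1b1 the WT value lay between the Arid3a cKO values. Gsta4 was at 601 and 799 against 447 CPM and was not called, the 2 Arid3a cKO libraries being far apart (log2 fold change 0.66 ± 0.18 SE; edgeR adjusted p = 0.17).

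**Figure D5:**
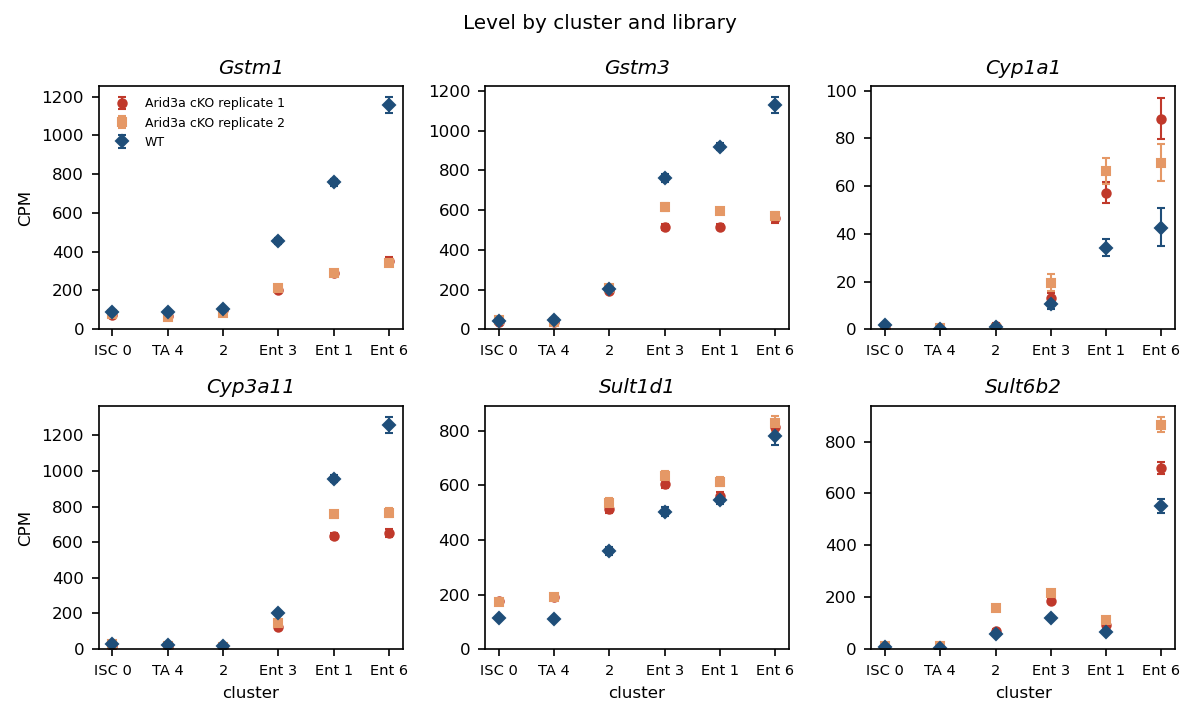
Level in CPM of 6 members in clusters 0 (ISC-like), 4 (TA-like), 2 (unnamed) and 3, 1 and 6 (enterocyte-like), for Arid3a cKO replicates 1 and 2 and WT. Bars are exact 95% Poisson intervals and cover counting error only. Gstm1 separates in clusters 3, 1 and 6, Sult1d1 in clusters 0, 4, 2 and 3, and Cyp1a1 is near 0 until cluster 3.

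In ISC- and TA-like cells, 64 members were tested and 7 were called, 4 higher and 3 lower, where 1.63% of 12157 genes were called (0.691% higher and 0.938% lower). The median log2 fold change of the members was 0.05 and that of all genes 0.00, and none of 34 members was separated by the rule of size, which 0.196% of genes met. Of the 34, 17 had both Arid3a cKO libraries above WT and 12 had both below, where 68.3% of genes had both on one side. The shares of genes above and below were not counted apart. Sult1d1, which sulfates catecholamines and other amines, was the member with a high level among the 7. It was at 182.3 and 182.5 against 112 CPM, a log2 fold change of 0.71 ± 0.13 (SE; edgeR adjusted p = 2.51e-05). The same order held in ISC-like cells (177 and 173 against 114 CPM), in TA-like cells (189 and 192 against 110.3 CPM) and in cluster 2 (512 and 537 against 361 CPM). In cluster 6 the values came together at 812, 827 and 782 CPM.

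The other 6 calls in ISC- and TA-like cells were of scarce members and depended on the fit. Sult1c2 was at 5.56 and 9.25 against 3.48 CPM, Sult6b2 at 5.80 and 13.5 against 4.97 CPM, and Gsta4 at 22.9 and 40.8 against 20.2 CPM. Gsta3 was at 1.81 and 2.57 against 5.06 CPM, Cyp2c55 at 2.54 and 3.81 against 6.29 CPM, and Cyp3a11 at 14.1 and 22.7 against 26.1 CPM. For Sult6b2 and Gsta4, replicate 1 lay near WT and replicate 2 well above it, and the edgeR fit in these cells gave such a spread almost no weight. DESeq2 and edgeR without TMM factors called Sult1d1 and none of these 6. Enterocyte markers stood at 3.45%, 3.54% and 3.86% of their enterocyte-like level in these cells, and Cyp3a11 stood at 3.18% to 4.02%, Cyp2c55 at 2.07% to 3.51%, Sult6b2 at 2.46% to 4.38% and Gsta4 at 3.82% to 5.11% of theirs. Gsta3 stood at 15.1% to 24.2%, Sult1d1 at 20.1% to 29.4% and Sult1c2 at 61.5% to 72.7%, well above the markers. The part of free enterocyte RNA in the calls near the marker level was not tested. SULT genes were 3 of the 4 higher calls, from 5 SULT genes tested, where 0.691% of all genes were called higher. Of these 3, Sult1c2 and Sult6b2 lost their calls in 6 and 7 of 11 alternatives.

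The effect of Arid3a loss on each member was next compared between the classes, by the term for class and genotype in 1 edgeR fit that kept the library as a block. Of 11899 genes, 0.664% differed (0.286% toward a higher value in enterocyte-like cells and 0.378% toward a lower one), and 2 of 71 members did. Gstm1 fell more in enterocyte-like than in ISC- and TA-like cells, by 1.02 on the log2 scale (-1.02 ± 0.14 SE; edgeR adjusted p = 1.86e-06), and its levels in the latter were 69.7 and 69.7 against 88.1 CPM. For Cyp1a1 the difference was 1.65 ± 0.42 (SE; edgeR adjusted p = 0.0384), but it had only 0.483 and 0.668 against 0.968 CPM in ISC- and TA-like cells, and the call was lost in 4 of 9 alternatives, DESeq2 among them (adjusted p up to 0.662). For Sult1d1 the difference between classes was -0.49 ± 0.15 and was not called (edgeR adjusted p = 0.112), so its effect was not shown to be confined to either class.

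Over all kept cells, 2 of 69 members were called, Gstm1 (146 and 144 against 301 CPM) and Cyp1a1 (17.8 and 19.6 against 10.1 CPM), where 0.524% of 12215 genes were called (0.156% higher and 0.368% lower). Gstm1 was also the 1 member of 48 separated by the rule of size, which 0.356% of genes met. Cyp1a1 lost its call in 2 of 8 alternatives (edgeR adjusted p up to 0.109). Enterocyte-like cells were 38.6% and 38.9% of kept cells in Arid3a cKO and 36.4% in WT, and both genes were also called within them. Cluster 2 was 16.2% and 12.6% against 10.7%, and enteroendocrine-like cells were 2.16% and 2.77% against 4.61%. The part of this cell make-up in the values over all kept cells was not tested. The median log2 fold change was 0.12 for members and -0.01 for all genes, and 48 of 69 members were above 0, as were 5928 of 12215 genes. Of members with a mean of 20 CPM, 31 of 48 had both Arid3a cKO libraries above WT and 12 had both below. Of all genes at that level, 75.9% had both on one side, and the shares above and below were not counted apart. In enterocyte-like cells, 20 of 54 members had both above and 16 had both below, where 76.0% of genes had both on one side. No SULT or UGT gene was called over all kept cells. The count of 2 is not firm: DESeq2 called 12 members, where it called 0.991% of all genes.

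Genes around the pathway that the rule leaves out, 84 sensors, redox partners, further oxidising, conjugating and cofactor enzymes and transporters, gave few calls. Of 73 tested in enterocyte-like cells, 0 were called by edgeR and 0 by DESeq2. An unadjusted edgeR p under 0.05 was found for 9 of them, and for 1354 of all 10671 genes tested. Of 74 tested over all kept cells, 0 were called by edgeR and 2 by DESeq2. There 12 had an unadjusted edgeR p under 0.05, as had 1353 of all 12215 genes tested. In ISC- and TA-like cells 1 of 73 was called, a share below the 1.63% of all genes. It was the purine-oxidising enzyme Xdh (18.3 and 21.4 against 28.2 CPM; edgeR adjusted p = 0.047), which lost its call in 7 of 11 alternatives. The receptors showed no call: in enterocyte-like cells Ahr was at 13.4, 11.7 and 12.7 CPM, Nr1i2 at 37.8, 38.9 and 43.2 CPM, and Nfe2l2 at 306, 286 and 361 CPM. Hnf4a, a master regulator of enterocyte genes, was at 92.7 and 95.1 against 117 CPM (edgeR adjusted p = 0.2), and Por, which passes electrons to every microsomal P450, was at 108 and 121 against 135 CPM (edgeR adjusted p = 0.434).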

How the data were processed

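The authors deposited raw UMI counts for each gene and barcode, produced with Cell Ranger 5.0 and its barcode selection. Which build they counted on is not given in the sources used here. Coordinates come from GENCODE M21 and promoters from RefSeq, both on GRCm38, and 51633 of 51912 features matched GENCODE by identifier.

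Cells with at least 1000 genes and at most 15% mitochondrial UMIs were integrated across libraries in Seurat 5.3.0 (canonical correlation, 3000 features, 30 components, resolution 0.3), with members and pathway genes left out of the features. Doublets were kept, and leaving out the highest 5% of Scrublet scores (scanpy 1.11.5) was an alternative. UMIs were summed per library and class, filtered at a mean of 1 CPM and fitted with edgeR 4.0.16 (TMM, quasi-likelihood, 1 residual degree of freedom). Each SE is the size of the log2 fold change divided by the square root of edgeR's F statistic. DESeq2 1.42.0 was an alternative. On simulated counts for 10671 genes of enterocyte-like cells, 82% of genes with a 2-fold and 99% with a 4-fold change were recovered, and 14 unchanged genes were called. The simulation gave WT and Arid3a cKO the same spread, taken from this fit, and no difference beyond the changed genes. It therefore cannot show the rates of recovery or false calls in these data.

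Members, gene lists and tests were chosen with earlier results of these data known. Members were named at a mean of 20 CPM in all kept, enterocyte-like or ISC- and TA-like cells, when called, or when highest in another class at 20 CPM in all libraries. With 2 Arid3a cKO libraries and 1 WT library, p-values rest on the spread between the Arid3a cKO libraries. For each gene, edgeR draws that spread toward a trend over all genes. The weight of the trend, as median prior degrees of freedom, was 5.95 over all kept cells and 8.31 in enterocyte-like cells. It was 60.1 for the difference between classes, while a gene's own spread has 1 degree of freedom. In ISC- and TA-like cells the prior was infinite, so a gene's own spread counted for almost nothing there. A further WT replicate was not analysed here.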

Additional observations from a re-analysis of the deposited data

Results flagged for a closer look

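The effect of Arid3a loss on Gstm1 differed between enterocyte-like and ISC- and TA-like cells by -1.02 on the log2 scale, by the test of the difference itself, and that on Cyp1a1 by 1.65. The Cyp1a1 difference rests on 12, 14 and 22 UMIs in ISC- and TA-like cells and lost its call in 4 of 9 alternatives (adjusted p up to 0.662).

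Barcodes removed by the limits on genes and mitochondrial UMIs entered no comparison of the report, though some of them entered the alternative with wider limits. In them, 7 members called higher in enterocyte-like cells had both Arid3a cKO libraries above WT, but so did 63.7% of the 10746 genes with a mean of 1 CPM there, so the direction alone says little. The mean Arid3a cKO levels were 153 CPM for Cyp2j6, 20.6 CPM for Cyp4b1, 9.24 CPM for Ugt2b38, 90.5 CPM for Sult6b2, 11.8 CPM for Ces1d, 18.9 CPM for Cyp1a1 and 18.8 CPM for Cyp2c29, against 86.7, 10.5, 1.32, 41.7, 7.48, 7.92 and 4.84 CPM in WT. Gstm1 was at 80.5 and 99.7 against 206 CPM, a direction seen for 10.4% of those genes. These barcodes come from the same 3 libraries, so they are no further replicate, and the differences were not tested.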

How the results depend on the processing

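No paired analysis was possible because replicate number 1 is the only one found in both groups. Leaving out a replicate gives edgeR no residual degrees of freedom, so it was done only for values without a test. Alternatives within single clusters or with cluster 2 added were chosen after seeing the data, and the cause of each shift below was not tested.

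Of the called members, Gstm1 kept its call in enterocyte-like cells under all 13 alternatives, over all kept cells under all 8 and for the difference between classes under all 9. Sult1d1 kept its call in ISC- and TA-like cells under 10 of 11 and lost it with cells of at least 500 genes and at most 25% mitochondrial UMIs (adjusted p = 0.0574). No result reversed. The lone WT library limits every comparison.

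The count of members called over all kept cells (2) was 12 at a threshold of 0.1, 9 with library totals only, 12 with DESeq2, 8 with a filter at 5 CPM, 1 with no filter, 1 with the wider limits on cells and 13 without the highest doublet scores. In enterocyte-like cells (10) it was 20 with library totals, 18 with the filter at 5 CPM, 20 with the wider limits and 16 in cluster 1 only. In ISC- and TA-like cells (7) it was 1 with library totals, DESeq2, the filter at 5 CPM, the wider limits or resolution 0.8, and 4 in TA-like cells only. The count that differed between classes (2) was 1 with DESeq2, 5 without the highest doublet scores and 1 at resolution 0.8. The share of all genes called moved as well, from 0.118% to 1.47% over all kept cells, 0.698% to 4.15% in enterocyte-like cells, 0.37% to 2.07% in ISC- and TA-like cells and 0.0672% to 1.35% for the difference.

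Pathway genes called over all kept cells (0) were 2 with DESeq2. In enterocyte-like cells (0) they were 2 with library totals, 2 with the filter at 5 CPM, 3 with the wider limits, 1 with no integration, 3 in cluster 1 only and 2 in cluster 6 only. In ISC- and TA-like cells (1) they were 0 with library totals, DESeq2, either other filter, resolution 0.8, no integration or TA-like cells only, and 2 without the highest doublet scores.

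Members separated by size over all kept cells (1) were 3 at a log2 ratio of 0.5 and 0 without the highest doublet scores, and 1 to 2 when a replicate was left out (2 without Arid3a cKO replicate 1). In enterocyte-like cells (1) they were 9 at a log2 ratio of 0.5 and 1 to 2 when a replicate was left out (2 without Arid3a cKO replicate 1). In ISC- and TA-like cells (0) they were 1 at a log2 ratio of 0.5. The member share in ISC- and TA-like cells, 0.0199 percentage points higher in Arid3a cKO, was 0.00331 points higher with the wider limits. Without the highest doublet scores, Sult6b2 and Gsta4 in ISC- and TA-like cells had log2 fold changes of 0.11 and 0.21 and were not called.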

Other observations

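Cyp2c29 was also among the 10 leading genes of the unnamed cluster 12, which held 13, 10 and 27 cells of Arid3a cKO replicate 1, Arid3a cKO replicate 2 and WT. It was at 4.12, 68.3 and 8.62 CPM there (2, 43 and 11 UMIs), in the same library order. The cells differed in kind between libraries, since 14 enteroendocrine markers summed to 35.0, 37272 and 11478 CPM, so these levels do not compare like cells.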
